A study of Mus musculus with 4 samples.

Results

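The cytosolic ribosomal protein genes were followed over the 4 arrays of a study of mouse heart. Members were taken by symbol from the array's platform annotation: Rpl or Rps followed by a digit, with Rpsa, Rplp0, Rplp1 and Rplp2, and without the S6 kinases and pseudogenes. The rule gave 84 probes of 66 genes, out of 25697 probes and 16593 named genes. By product these were 23 small subunit proteins, 32 large subunit proteins, 3 stalk proteins, 6 paralogues, and 2 genes that match the symbol but encode no classical ribosomal protein (Rps19bp1, whose product binds Rps19, and the retrogene Rps23rg1). The rule itself uses symbols and no measured value.

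Whole hearts came from C57Bl6 mice of 8 to 9 weeks that had all been uninephrectomised and treated for 8 days. WT mice carried MR flox/flox alleles of the mineralocorticoid receptor gene without Cre. CM-MRKO mice carried MR flox/flox with MLC2v Cre, which is driven from the ventricular myosin light chain promoter and so acts in ventricular cardiomyocytes and not in the other cells of the heart. Each genotype received vehicle or DOC/salt (the mineralocorticoid deoxycorticosterone with salt). Each group is 1 Illumina bead array of RNA pooled from 8 animals, so no difference below has a replicate check, no p-value is given, and animal-to-animal spread is not known. The receptor gene itself was not analysed here, so the deletion was not checked on these arrays.

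Ribosomal proteins assemble with ribosomal RNA into a small subunit, which reads the mRNA, and a large subunit, which forms the peptide bond. Their mRNAs belong to the TOP class: they start with a C followed by an unbroken run of pyrimidines, which lets growth signalling through mTOR and the binding protein LARP1 set their translation together. In heart, ribosome content rises when myocytes grow, and striated muscle carries a large subunit protein of its own, Rpl3l, in place of the ubiquitous Rpl3.

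The start sites below show the feature that gives the class its name, and which the symbol rule did not use. Of 57 members with a start in the RefSeq table (assembly GRCm38.p6), 11 (19.3%) had a listed start at C followed by at least 4 bases that were each C or T, against 2.70% of 13335 array genes with a start. With the C allowed to lie within 5 bases of the listed start, the shares were 47.4% and 22.0%. Windows run from 10 bases before the start to 20 bases from it, and capitals mark the start base and, where there is one, its pyrimidine run. Rps6 (chr4:86857348-86857377, minus strand), the substrate of the S6 kinases, Rps10 (chr17:27635225-27635254, minus), Rpl35 (chr2:39005112-39005141, minus), Rpl38 (chr11:114668570-114668599, plus) and Rpl35a (chr16:33056472-33056501, plus; 1 of its 3 listed starts) held the run. Muscle-restricted Rpl3l is also shown at both of its listed starts (chr17:24727816-24727845 and chr17:24732675-24732704, plus), neither of which opened with C. Most members lacked the run at their listed starts, Rpl5 and Rps3 among them, so its absence is not particular to Rpl3l.
Rps6: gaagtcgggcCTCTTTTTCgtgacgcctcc
Rps10: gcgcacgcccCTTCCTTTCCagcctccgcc
Rpl35: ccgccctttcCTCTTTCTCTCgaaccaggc
Rpl38: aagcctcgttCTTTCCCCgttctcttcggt
Rpl35a: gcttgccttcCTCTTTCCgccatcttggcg
Rpl3l, first start: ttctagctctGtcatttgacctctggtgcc
Rpl3l, other start: caacagctacAgtgccccaaatgtcctgaa
A start without the run in this table says only that these letters are not at the listed base.

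A probe was taken as detected where under 0.01 of 1341 sensory receptor probes (smell, pheromone and taste genes, taken as silent in heart) were as bright, which set limits between 108.8 and 121.8 on the 4 arrays. Of the 66 members, 57 were detected on at least 1 array and 53 on all 4. The 9 members not detected on any array were Rpl6, Rpl14, Rpl17, Rpl22l1, Rpl39l, Rplp2, Rps23, Rps23rg1 and Rpsa. Most of these encode proteins that every ribosome carries, and an undetected probe does not show that the gene is silent. Rpsa, for example, read 84.7, 80.6, 108.5 and 111.1, all under the limit. Values are listed for WT and then CM-MRKO, with vehicle before DOC/salt in each. Rps15a was detected on the CM-MRKO arrays only, Rpl21 on all arrays but WT DOC/salt, and Rplp0 and Rps3a1 on all but WT vehicle. Where a gene had several probes, the brightest stood for it. Levels of different probes cannot be compared on such arrays, and probes of ribosomal protein genes can also bind transcripts of their many processed pseudogenes.

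The WT vehicle array was dimmer than the others, and this touches every comparison that uses it. Its 75th percentile of deposited intensity was 120.2, against 147.6, 152.4 and 161.4. Over 5471 genes detected on all arrays, its normalized values correlated with those of the other arrays at r across genes of 0.975 to 0.978, while the other 3 correlated at 0.993 to 0.995; genes are not independent replicates. Before normalization it was the dimmest array for 55 of the 57 detected members and for 93.4% of all 6830 detected genes. Markers detected included 6 of 7 cardiomyocyte genes with a probe (all but Ryr2), while of 6 lymphocyte genes 4 were not detected, including Cd3e and Cd79a. Summed fibroblast marker intensity was 1850 on the WT vehicle array and 5846 to 6388 on the others. Most of that gap was Dcn alone (395.2, 3887, 4135 and 4130), and in the WT response 3 of 5 detected fibroblast markers were below 0. Meanwhile summed neutrophil marker intensity ran 729.5, 1205, 1549 and 2373. Most of that rise was S100a8 alone (249.3, 660.9, 888.5 and 1579). Of the 6 neutrophil genes with a probe, Ngp and Camp were not detected, and Ltf was detected on 1 array. The part of these cells in any member's difference was not tested, and in whole-heart RNA fewer cells of a type and less RNA per cell cannot be told apart.

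Ribosomal protein genes as a group took nearly the same share of the signal on each array. With only the brightest probe of each of the 66 genes counted, they summed to 4.21%, 4.14%, 4.19% and 4.22% of the intensity of all probes. The WT DOC/salt array was the lowest and the CM-MRKO DOC/salt array the highest, while the members' summed intensity itself ran from 263726 on the WT vehicle array to 376158 on that of CM-MRKO DOC/salt. These sums include background and are dominated by the brightest probes.

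**Figure D1:**
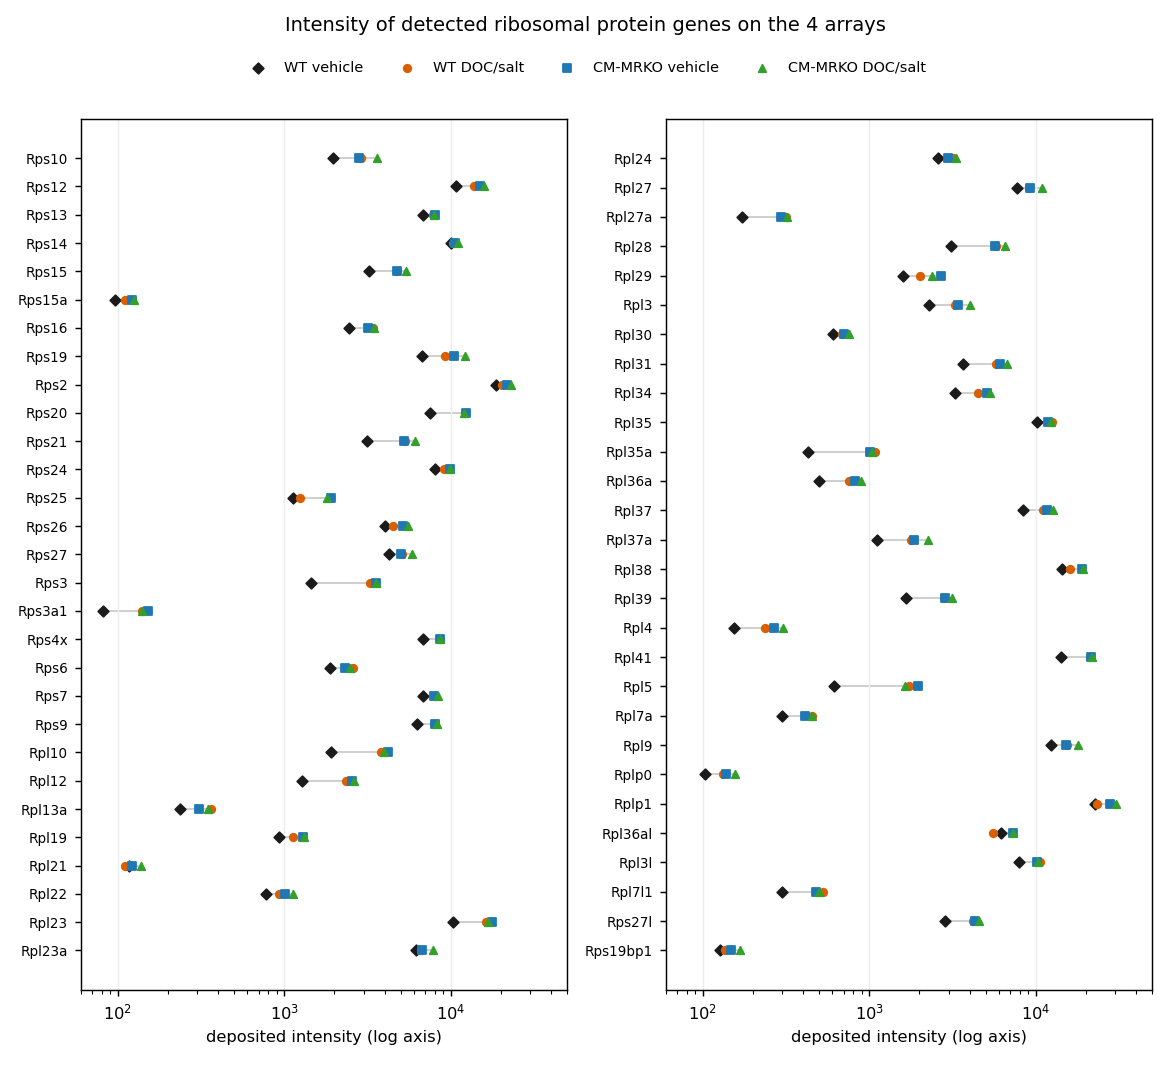
Deposited intensity (log axis) of the 57 ribosomal protein genes detected on at least 1 array, 1 row per gene and 1 marker per array, with small subunit genes first, then large subunit, stalk and paralogue genes. The WT vehicle marker lies lowest in 55 of 57 rows, and Rpl5, Rpl35a and Rps3 show the widest gaps between it and the other 3.

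Among the comparisons that do not use the WT vehicle array, the first asked what DOC/salt did in hearts whose cardiomyocytes lack the receptor. None of 57 detected members differed by 1.5-fold between CM-MRKO DOC/salt and CM-MRKO vehicle after normalization, where 1.0% of 6668 detected genes did in either direction (0.60% higher and 0.405% lower). The median member difference was 0.02 on the log2 scale and the median over all genes was 0.01. Member differences ran from -0.35 to 0.29 with quartiles of -0.05 and 0.10. Their spread (SD over genes 0.13) was narrower than that of all detected genes (0.20). Mitochondrial ribosomal protein genes also had a narrower spread (0.16), so this was not particular to members. At 1.2-fold, a limit chosen after seeing the data, 1 member was higher and 3 were lower, against 9.25% and 7.84% of all genes (17.1% in either direction). Technical spread was estimated from how far 2 probes of the same gene disagreed, and was 0.18 on the log2 scale over 1424 genes, beyond both quartiles of the members.

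Among the 53 members detected on all 4 arrays, to which the rankings of named members are limited, the highest value in the CM-MRKO response was that of Rps10, a small subunit protein of the mRNA entry side, with intensities of 1972, 2871, 2813 and 3575. Its CM-MRKO DOC/salt value was the highest of the 4, at 0.29 above CM-MRKO vehicle on the normalized log2 scale. Rpl23a, which lies at the exit of the peptide tunnel, was higher by 0.22, Rpl37a by 0.21 and Rps19, which is mutated in human Diamond-Blackfan anaemia, by 0.18. At the other end, Rpl5, which carries 5S rRNA into the large subunit and can bind the p53 regulator Mdm2, was at -0.35, with intensities of 1954 in vehicle and 1647 after DOC/salt. Rpl29 was at -0.28, Rpl23 at -0.18 and Rps25 at -0.17. Rps3a1, detected on 3 arrays, was at -0.33. Further Rpl23 probes gave 0.01 and 0.16, so its probes did not share a direction. The second Rpl29 probe gave -0.12.

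The genotypes under DOC/salt were compared next. CM-MRKO mice differ from WT mice by Cre as well as by the receptor, and the 2 cannot be told apart here. Again none of 57 members differed by 1.5-fold between CM-MRKO DOC/salt and WT DOC/salt, where 1.76% of 6689 genes did (0.837% higher and 0.927% lower). The median member was at 0.07 and the median gene at 0.02, and member differences ran from -0.22 to 0.44. At 1.2-fold 5 members were higher in CM-MRKO and 0 lower, against 11.7% and 9.70% of all genes (21.4% in either direction). The share of members was only a little below that of all genes for higher values, and no member was lower. This limit was chosen after seeing the data, and whether members differ from all genes was not tested.

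Rps25, a small subunit protein needed for initiation at some viral internal entry sites in human and yeast cells, had the highest value in this comparison. Its intensities were 1120, 1242, 1906 and 1799, so on the deposited scale both CM-MRKO arrays lay above both WT arrays. After normalization the WT vehicle value (10.58 on the log2 scale) was above that of CM-MRKO DOC/salt (10.52). The normalized difference under DOC/salt was 0.44 (1.35-fold), and it was 0.42 to 0.53 under the other scalings and on the deposited values. Under vehicle the normalized difference was 0.11 and the deposited one 0.77. Rps25 was also the only one of 57 members that varied by 1.5-fold over the 3 arrays other than WT vehicle (1.75% of members, against 3.40% of 6830 genes). Rpl4, of the peptide tunnel wall, was higher in CM-MRKO by 0.29 with intensities of 237.9 in WT and 302.1 in CM-MRKO. The paralogue Rpl36al was higher by 0.28 (5493 and 7316) and Rps19 by 0.27 (9166 and 12059). The lowest values among members detected on all 4 arrays were those of Rpl7l1 at -0.21, Rpl3l at -0.21, Rpl5 at -0.21 and Rpl13a at -0.20, next to a technical spread of 0.20. Of members detected on 3 arrays, Rps3a1 was at -0.22. The probe that stood for Rpl21, undetected on the WT DOC/salt array, was at least 1.18-fold higher in CM-MRKO. The second Rpl21 probe was undetected on both DOC/salt arrays (104.6 and 118.2) and differed by 0.07 on the log2 scale.

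**Figure D2:**
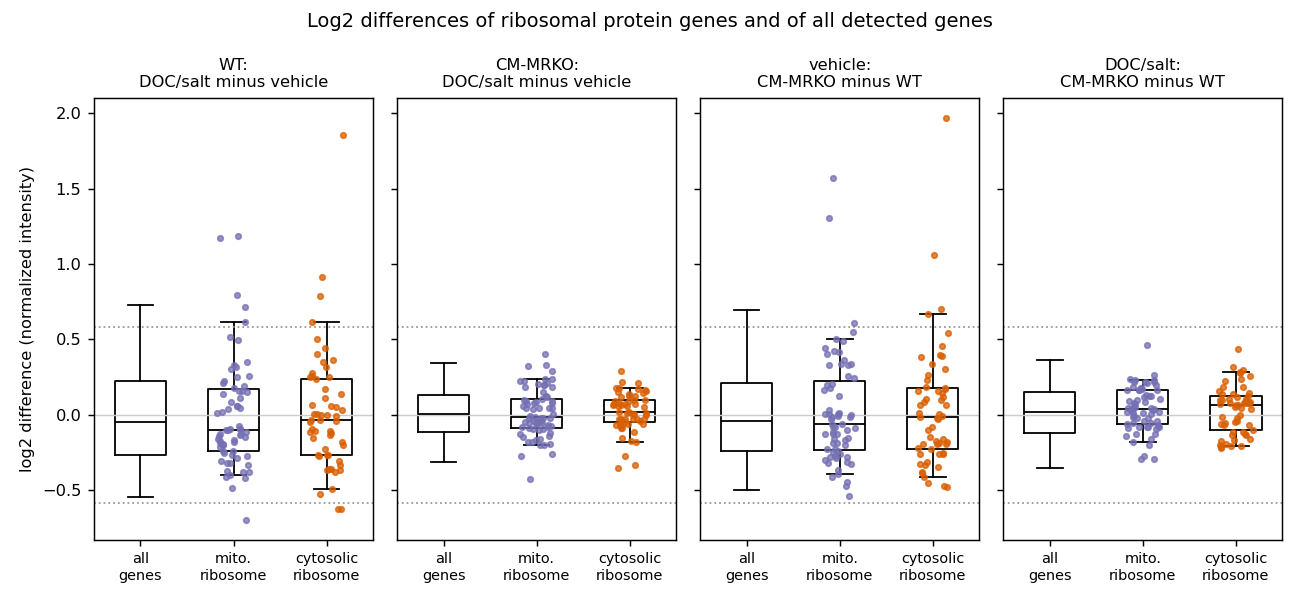
Log2 differences of normalized intensity in the 4 pairwise comparisons for all detected genes (box only), mitochondrial ribosomal protein genes and cytosolic ribosomal protein genes (box and 1 point per gene); boxes give the median and quartiles, whiskers the 5th and 95th percentiles, and dotted lines 1.5-fold. No cytosolic ribosomal protein gene passes 1.5-fold in the 2 comparisons without the WT vehicle array, and those that pass in the other 2 lie mostly on the high side.

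In WT hearts, 6 of 56 detected members (10.7%) differed by 1.5-fold between DOC/salt and vehicle, against 12.7% of 6391 detected genes. Of these, 4 were higher after DOC/salt (Rps3a1, Rpl5, Rpl35a and Rps3, where 8.68% of all genes were higher) and 2 were lower (Rpl36al and Rpl21, where 3.99% were lower). Rps3a1 was undetected on the WT vehicle array and Rpl21 on the WT DOC/salt array, and with both at their bounds 3 members were higher and 1 lower. Between CM-MRKO vehicle and WT vehicle, 4 of 57 members (7.02%) passed, against 9.82% of 6364 genes; these were again Rps3a1, Rpl5, Rps3 and Rpl35a, all higher in CM-MRKO (7.39% of all genes were), and none was lower (2.44%); 3 were higher with Rps3a1 at its bound. Both comparisons use the WT vehicle array. Those 4 genes are the members on which that array lay at least 1.5-fold below each of the other 3, as it did for 4.36% of 6830 genes. No member lay that far above the others on the WT vehicle array (0.425% of genes did), and no member lay that far from the others on any other array. Of all genes, 0.102% lay that far below and 0.249% above on the WT DOC/salt array, 0.0146% and 0.0586% on that of CM-MRKO vehicle, and 0.0293% and 0.0732% on that of CM-MRKO DOC/salt. The medians were -0.04 and -0.02 for members and -0.05 for all genes in both comparisons, with member differences from -0.63 and from -0.48 up to those of Rpl5, 0.92 and 1.06, the highest of a member detected on both arrays; Rps3a1 lay above Rpl5 only through an undetected value. At 1.2-fold, 11 members were higher and 15 lower in the WT response, against 22.7% and 25.1% of all genes (47.8% in either direction), and 11 were higher and 11 lower between the vehicle arrays, against 21.3% and 22.1% (43.5%).

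Rpl5 had intensities of 611.6, 1729, 1954 and 1647. The WT vehicle value lay far below the other 3, which were close together. After normalization Rpl5 was 1.89-fold higher in WT DOC/salt than in WT vehicle and 2.09-fold higher in CM-MRKO vehicle. Rpl35a, a large subunit protein also mutated in human Diamond-Blackfan anaemia, had intensities of 425.8, 1089, 1015 and 1042, and normalized folds of 1.73 and 1.59 in the same comparisons. Rps3, of the mRNA entry channel, read 1437, 3265, 3556 and 3567, with folds of 1.53 and 1.63. Its second probe was low on the same array (200.3, 536.6, 523.1 and 572.5), with differences of 1.06 and 0.99 on the log2 scale. Rps3a1, another small subunit protein, was not detected on the WT vehicle array (81.3, 139.7, 152.1 and 140.4). With the lowest detected value of that array in place of its own, taken after background correction, it was at least 1.21-fold higher in WT DOC/salt and at least 1.30-fold higher in CM-MRKO vehicle. At these bounds it no longer passed 1.5-fold.

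The detected probes of Rps9 went different ways on the WT vehicle array. The probe that stood for Rps9, a small subunit protein that helps set decoding accuracy in yeast, read 6213, 7881, 8017 and 8266 and differed by -0.12 in the WT response. Its second probe read 195.3, 549.5, 595.6 and 552.5 and differed by 1.16. Both were detected on all 4 arrays. The 2 Rps9 probes differed by 0.09 in the comparison of the DOC/salt arrays, where WT vehicle takes no part. Of 7 members with more than 1 detected probe, Rps9 and Rpl21 had probes that differed by 1.5-fold or more in each of the 2 comparisons with the WT vehicle array, and none did in the other 2. The second Rpl21 probe was undetected on both WT arrays. The 2 Rpl31 probes differed by that much only in the difference of responses, by 0.68 on the log2 scale. The share of all genes with such probes was not counted.

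**Figure D3:**
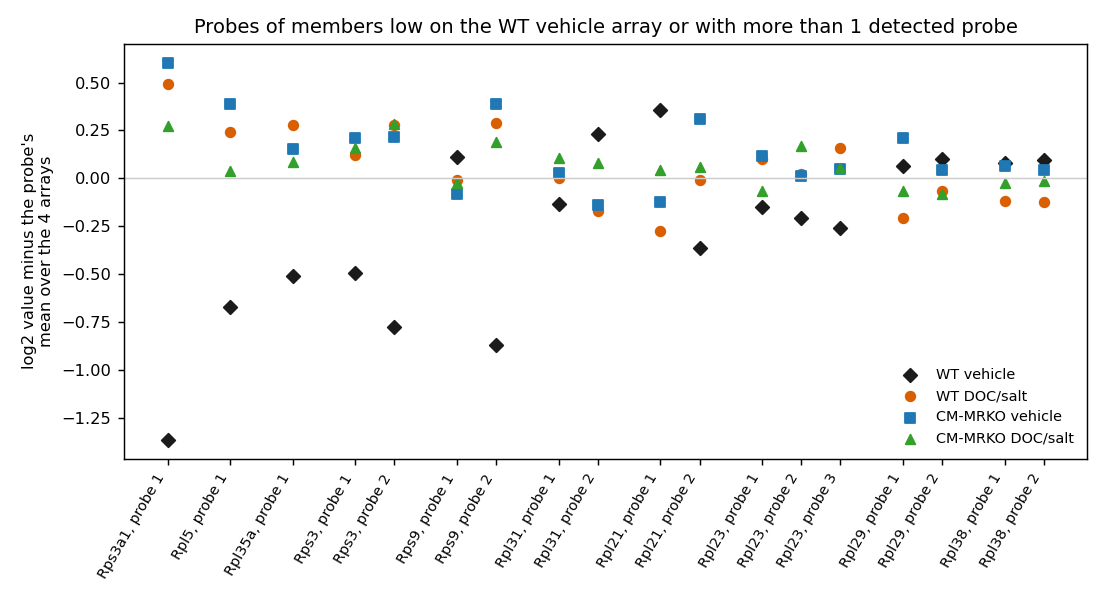
Normalized log2 value of each detected probe minus that probe's mean over the 4 arrays, for members low on the WT vehicle array and members with more than 1 detected probe (probe 1 stands for the gene). WT vehicle lies lowest for Rps3a1, Rpl5, Rpl35a, both Rps3 probes and the second Rps9 probe, but highest for the first Rps9 probe.

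Rpl36al had intensities of 6199, 5493, 7262 and 7316. With Rpl21, it was 1 of 2 among the 57 detected members whose deposited value was lowest on the WT DOC/salt array. That is 3.51% of members, against 5.55% of 6830 genes. After normalization Rpl36al was 1.55-fold lower in WT DOC/salt than in WT vehicle. On the deposited values this was -0.17 on the log2 scale and with scaling to the median of all probes -0.37, both under 1.5-fold. Rpl21 read 117.7, an undetected 110.4, 122.5 and 138.0, and its second probe went the other way in the WT response (92.1 and 104.6, both undetected). The next lowest members detected on all arrays were Rpl30, a large subunit protein, at -0.53, Rps25 at -0.50 and Rpl22 at -0.38. On the deposited scale Rpl30, Rps25 and Rpl22 were brighter after DOC/salt, by 0.18, 0.15 and 0.25, so their sign comes from the scaling. At the high end, Rpl27a (173.3, 314.6, 293.2 and 321.0) was at 0.50. Against WT vehicle, Rpl10, the last protein added to the maturing large subunit, was 0.54 higher in CM-MRKO vehicle (1908 and 4173). The lowest members there, of those detected on all 4 arrays, were Rpl30 at -0.47, Rpl23a at -0.45, Rpl24 at -0.41 and Rps7 at -0.39, and each of these 4 was brighter on the deposited scale in CM-MRKO, so their sign comes from the scaling.

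Subtracting the WT response from the CM-MRKO response joins all 4 arrays. The median member was at 0.07 and the median gene at 0.05. Past 1.5-fold were 7 of 57 members (12.3%), against 16.7% of 6830 genes; 2 were higher (Rpl21 and Rpl36al, against 6.68% of genes) and 5 lower (Rps3a1, Rpl5, Rpl35a, Rps3 and Rpl10, against 10%). For Rps3a1 and Rpl21 this difference includes an undetected value. At 1.2-fold 28 members passed, against 52.4% of genes (28.1% higher and 24.3% lower). These 5 are low on the WT vehicle array, which enters this difference with the same sign as the CM-MRKO DOC/salt array.

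Subunits were then taken apart. In the CM-MRKO response the median was 0.01 over 21 small subunit genes and 0.06 over 29 large subunit genes. Under DOC/salt, CM-MRKO minus WT, the medians were 0.00 and 0.08. With the WT vehicle array they were -0.11 and 0.00 in the WT response, and -0.10 and 0.06 for the vehicle arrays. Whether the subunits differ was not tested.

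Of the stalk proteins, which recruit elongation factors to the large subunit, Rplp1 read 22672, 23380, 27749 and 30251. It was the brightest probe of the whole array on both CM-MRKO arrays, so quantile normalization, which gives probes of equal rank an equal value, sets its CM-MRKO response to 0.00. The deposited intensities alone rank the 4 arrays in the order of their overall brightness. Rplp0 read an undetected 103.2, then 132.6, 137.6 and 155.2, and Rplp2 was not detected. Rps6, whose phosphorylation follows mTOR activity, read 1873, 2572, 2314 and 2491, and its normalized differences were -0.15 in the WT response, 0.05 in the CM-MRKO response, -0.33 between the vehicle arrays and -0.13 between the DOC/salt arrays. None of these passed 1.5-fold, and phosphorylation is not measured by an expression array. On the deposited values the Rps6 WT response was 0.46 and the vehicle arrays differed by 0.30, so both of these signs come from the scaling.

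The striated muscle paralogue Rpl3l, which replaces Rpl3 next to the peptidyl transferase centre, was detected on all arrays at 7932, 10527, 10152 and 10322. Rpl3 read 2291, 3275, 3383 and 4008. Rpl3l was nearly level over the 3 arrays other than WT vehicle, while Rpl3 was highest on the CM-MRKO DOC/salt array. The ratio of Rpl3l to Rpl3, normalized, was lower by 0.40 on the log2 scale in CM-MRKO DOC/salt than in WT DOC/salt, and the deposited values gave -0.32. It was lower by 0.24 than in CM-MRKO vehicle (-0.22 on the deposited values). In the WT response the same ratio differed by 0.04 normalized and -0.11 deposited. Each gene has 1 probe, and a ratio of 2 probes carries the technical spread of both.

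Other paralogues showed varied patterns. Rps27l, a stress-inducible paralogue of Rps27 that p53 activates, read 2856, 4198, 4301 and 4544, and Rps27 read 4242, 5083, 5006 and 5840. Their ratio differed by 0.36 in the WT response and by -0.15 in the CM-MRKO response. Rpl36al relative to Rpl36a (501.7, 759.1, 823.1 and 886.7) was lower by 0.58 in the WT response, the largest such shift among the 3 pairs in which both genes were detected, and differed by -0.04 in the CM-MRKO response. Rpl7l1, a paralogue of Rpl7, read 297.3, 526.3, 475.6 and 496.6. Rpl39l, which is known from the testis, read 81.8 to 90.3 and Rpl22l1 87.1 to 94.8, none above the limit, while their partners Rpl39 (1652, 2788, 2846 and 3139) and Rpl22 (775.9, 925.1, 1007 and 1123) were detected throughout. Rpl7, Rpl10l, Rpl26, Rpl26l1 and Rps27a had no member probe and were not analysed here.

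**Figure D4:**
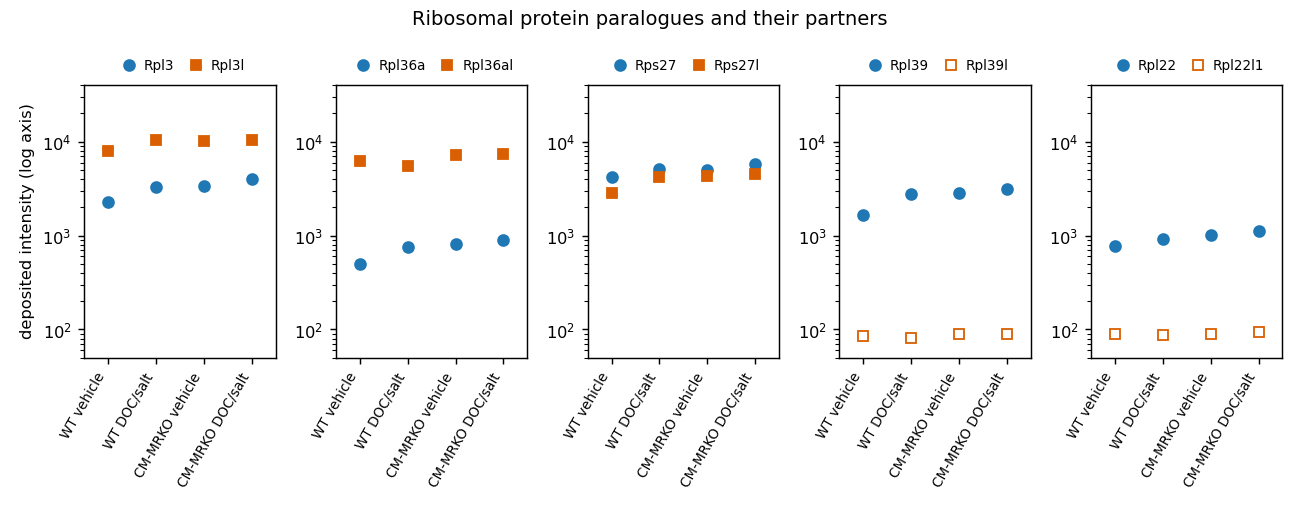
Deposited intensity (log axis) of 5 paralogues (squares) and their partners (circles) on the 4 arrays; open symbols mark probes not detected on any array, and heights of different probes are not comparable. Rpl3l is nearly level over the 3 arrays after WT vehicle while Rpl3 is highest in CM-MRKO DOC/salt, and Rpl39l and Rpl22l1 stay at 81.8 to 94.8.

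The rest of the translation machinery was read from lists. Fau, which encodes ribosomal protein S30 in fusion with a ubiquitin-like protein and escapes the symbol rule, read 6160, 6565, 8198 and 8339, with 0.27 between the DOC/salt arrays and -0.01 in the CM-MRKO response. Mitochondrial ribosomal proteins serve the separate ribosome of the organelle. In the CM-MRKO response 0 of 68 of their genes passed 1.5-fold (median -0.02), against 1.0% of all genes. Between the DOC/salt arrays 0 of 68 passed (median 0.04), against 1.76% of all genes. In the WT response 5 were higher and 1 lower of 67 (8.96% in all, against 12.7% of all genes). Mrps18c was at 1.18 (121.0, 269.1, 294.3 and 247.7), and Mrpl52 was undetected on the WT vehicle array (97.5, 166.8, 206.1 and 202.5). Cytosolic and mitochondrial ribosomal protein genes both gave a count of 0 in the 2 comparisons without that array. In lists of this size such a count lies near the share of all genes, and no difference was tested.

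Of the translation factors and other TOP mRNAs, 14 of 18 with a probe were detected. In the CM-MRKO response 0 of 14 passed 1.5-fold, against 1.0% of all genes, with a median of -0.11. Between the DOC/salt arrays 1 of 14 passed (7.14%, against 1.76% of all genes), with a median of -0.10: Eef2, the elongation factor that moves the ribosome along the mRNA, was lower in CM-MRKO by 1.02 on the log2 scale, with intensities of 707.8, 1037, 749.9 and 582.4. Its deposited value was highest on the WT DOC/salt array and lowest on that of CM-MRKO DOC/salt, and its normalized WT response was -0.08. In the WT response 4 were higher (Eif3k, Eif2s3x, Hnrnpa1 and Eif4a2, subunits of initiation factors, an RNA-binding protein and a helicase) and 2 lower (Eif4b and Eef1b2), which is 42.9% of 14 against 12.7% of all genes. The deposited values of the 4 higher genes were lowest on the WT vehicle array. Eif3k and Hnrnpa1 were undetected there, and Eif4b was undetected on the WT DOC/salt array. Eef1b2 read 1609.5 in WT vehicle and 1567 in WT DOC/salt, so most of its normalized difference of -0.65 comes from the scaling.

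Ribosome biogenesis and RNA polymerase I genes were detected for 25 of 35 with a probe. In the CM-MRKO response 0 of 25 passed 1.5-fold (median 0.02), against 1.0% of all genes. Between the DOC/salt arrays 1 was higher in CM-MRKO, Rrp9 (153.9 and 228.5), and 1 lower, Nop56 (199.4 and 154.4), both with a role in processing or modification guided by small nucleolar RNAs, with a median of 0.09; the 2 are 8.00% of 25, against 1.76% of all genes. Fbl, the nucleolar methyltransferase, was at 0.17 and Npm1, the nucleolar chaperone, at 0.06. Of 8 regulators with a probe 3 were detected. Mtor, the kinase at the head of TOP mRNA control, read 208.0, 192.8, 277.6 and 287.5. It was higher in CM-MRKO under DOC/salt by 0.61, as 1 of 3 past 1.5-fold (33.3%, against 1.76% of all genes). In the WT response Mtor was at -0.83, again 1 of 3 past 1.5-fold (33.3%, against 12.7% of all genes). Its deposited values were close there (208.0 and 192.8), so most of that normalized difference comes from the scaling. The CM-MRKO response of Mtor was -0.04, and the vehicle arrays differed by -0.17. On the deposited scale both were above 0 (277.6 to 287.5, and WT 208.0 to CM-MRKO 277.6), so these signs come from the scaling.

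The sign of a group median against the WT vehicle array depended on how arrays were scaled, while the other 2 comparisons did not. In the WT response the member median was -0.04 as reported, 0.27 with scaling to the median of all probes, -0.25 with scaling to probes detected on all 4 arrays, and 0.43 on the deposited values. The median of all detected genes moved with it, at -0.05, 0.39, -0.12 and 0.39. Relative to all genes, members were at 0.01, -0.12, -0.12 and 0.04. In the CM-MRKO response the member median lay between 0.02 and 0.10 under the same settings, and 0 members passed 1.5-fold under each of them.

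**Figure D5:**
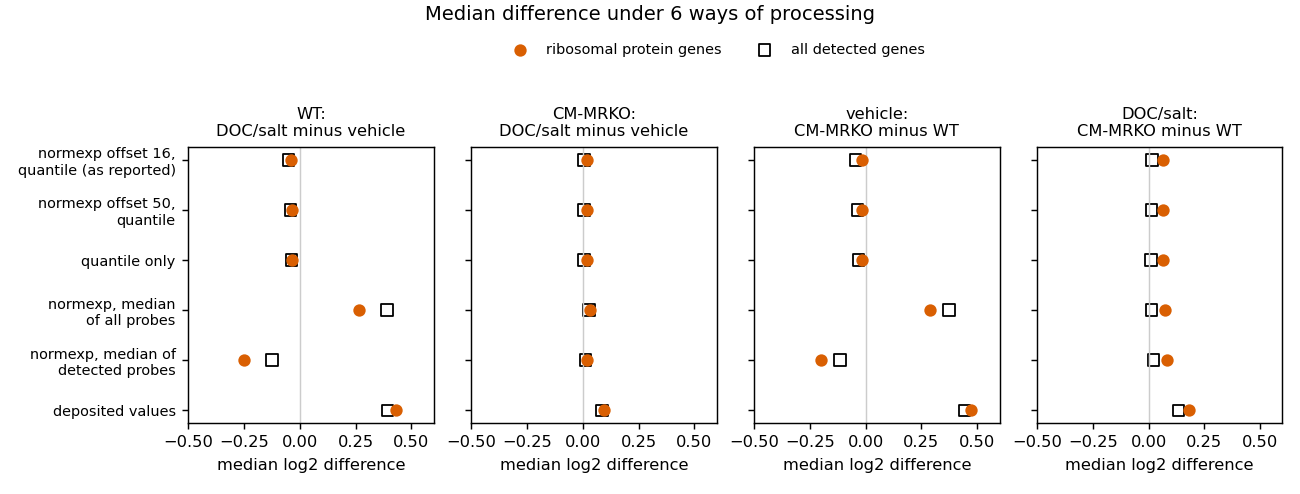
Median log2 difference of the detected ribosomal protein genes (filled circles) and of all detected genes (open squares) under 6 ways of processing, for the 4 pairwise comparisons. In the comparisons with the WT vehicle array both medians shift together across 0, and in the other 2 panels members lie between 0.02 and 0.18 throughout.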

How the data were processed

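RNA from whole hearts, pooled over 8 animals per group, was hybridised to 1-colour Illumina arrays. The deposited intensity values are linear, keep their background and show no scaling between arrays. The submitters' processing notes list Partek, with no version. The labels' treatment protocol names vehicle for every sample, so groups were taken from titles. A second table, with 4 columns whose names match no sample label, was not used, and detection was estimated from the sensory receptor probes. Intensities were corrected with normexp (maximum likelihood, offset 16), quantile-normalized and put on the log2 scale in limma 3.58.1 under R 4.3.3. No log2 values came from the authors. All 66 members were found by identifier in a RefSeq gene table (GRCm38.p6). Of 25697 probes, 23978 had 1 symbol, 0 several and 1719 none.

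With 1 array per group no test was possible; calls are differences of at least 1.5-fold. Members and lists were chosen with earlier results of these data known. Named members follow a rule: those past 1.5-fold, the 4 extremes per direction and comparison, paralogue pairs, stalk proteins, Rpsa and Rps6, members with discordant probes, undetected members and members on which 1 array stands apart. Technical spread comes from genes with several detected probes: for the brightest pair, the SD of their disagreement, scaled to 1 probe. Scripts were tested on simulated data. The number of arrays, 4, limits the precision.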

Additional observations from a re-analysis of the deposited data

Results flagged for a closer look

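The computed DOC/salt response had opposite signs in the 2 genotypes, each beyond the technical spread of its comparison, for 2 members, and for Rpl5 alone were all 4 values detected. This rule was not run over all genes, so the count is not shown to be particular to members. Rpl5 was 0.92 higher after DOC/salt in WT and 0.35 lower in CM-MRKO on the log2 scale, a difference of responses of -1.27. Rps3a1 had a computed difference of responses of -2.19, which is no measured size because its WT vehicle value was undetected; at its bound the WT response was at least 0.27 on the log2 scale, under the technical spread of 0.38. Each value rests on 1 pool per group, the difference was not tested, and both genes read lowest on the WT vehicle array.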

How the results depend on the processing

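No paired analysis was possible because each group has 1 array. The count of members past 1.5-fold was 0 in the CM-MRKO response under every setting at that fold, and 0 between the DOC/salt arrays except for 1 (undetected Rpsa) with undetected members included. With 1.2-fold, chosen after seeing the data, counts were 26 in the WT response, 4 in the CM-MRKO response, 22 between the vehicle arrays, 5 between the DOC/salt arrays and 28 in the difference of responses. With scaling to the median of all probes they were 13 (all higher) in the WT response, 10 (all higher) between the vehicle arrays and 12 (all lower) in the difference, where 30.6%, 27.4% and 30.1% of all genes passed. With scaling to detected probes they were 9 in the WT response (3 higher, 6 lower), the opposite balance to the 4 higher and 2 lower reported, 7 between the vehicle arrays (4 higher, 3 lower) and 13 in the difference (9 higher, 4 lower), against 13.1%, 9.66% and 18.9% of all genes. On the deposited values they were 19, 23 and 12 in the same 3 comparisons, against 27.1%, 29.8% and 20.3% of all genes, and the medians were 0.43 in the WT response and 0.47 between the vehicle arrays. Every one of these 3 comparisons uses the WT vehicle array, and the cause was not tested. Of 6391 genes in the WT response, those past 1.5-fold were 555 higher and 255 lower as reported, 1948 and 10 with median scaling, 371 and 464 with detected-probe scaling, and 1727 and 2 on the deposited values. Of 624 values for 26 named members under 6 settings, 531 stayed within the technical spread, 93 moved beyond it and none that passed 1.5-fold changed sign.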

Other observations

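Promoter windows of the members, 250 bases before to 50 after each RefSeq start, were searched on both strands for short motifs, where a match describes letters and not a bound factor. CCGGAA, the core bound by ETS-family factors, was found in at least 1 window of 50.9% of the 57 members with a window and of 22.5% of 13335 array genes. ATGGCG was found in 29.8% and 13%, GGGCGG in 63.2% and 53.6%, and TATAAA in 10.5% and 14.3%. Part of ATGGCG can be the start codon itself. No expression value bears on these letters.

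The 66 members lay on 18 chromosomes, with 10 on chromosome 7 and 7 on chromosome 9.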
